A study of Homo sapiens with 10 samples.

Results

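Bulk RNA-seq counts from human thyroid organoids were read for 38 genes of glycolysis and of the response to low oxygen. The members were taken as a named list: the genes that carry glucose from uptake to lactate (23 genes), and the hypoxia-inducible factor (HIF) subunits, the prolyl hydroxylases that mark them and their responsive effectors (15 genes). All 38 were found among the 28265 gene symbols in the count tables and all 38 passed the filter on low counts, which left 21014 genes to test. Each library held between 7247268 and 10333933 counts, and 3 counts, taken as the smallest value a library can show for counting error only, were worth 0.29 to 0.414 CPM (counts scaled to a common library size).

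The cells came from 1 engineered line (HES3, a human embryonic stem cell line, given in the labels as ESIBIe003-A-6), which carried GFP knocked into 1 copy of NKX2-1, plus NKX2-1 and PAX8 transgenes that doxycycline switches on, so these changes are shared by every group. By the study's methods, embryoid bodies were grown in Matrigel, treated with Activin A and then doxycycline, and kept in basal medium until day 16. NKX2-1GFP+ cells were sorted on days 16, 23, 31, 38 and 45, with 2 libraries a day, each from pooled wells. The labels give c-AMP for days 16, 23 and 31, TSH with dexamethasone for day 38 and TSH with SB (SB431542, an inhibitor of the TGF-beta receptor kinase) for day 45. The study's account of its results starts c-AMP only from day 16 and keeps dexamethasone in the day 45 medium. It places the switch from c-AMP to TSH and dexamethasone just before day 31, which the labels still give as c-AMP. By the labels, the medium changes from day 31 to day 38 and from day 38 to day 45. By the study's account there are changes from day 16 to day 23 and from day 23 to day 31. A further change, the start of SB431542, falls next to day 38 in that account. It is put just before day 38 in one place and on day 38 in another. Whether the day 38 libraries had received SB431542 is therefore not clear. Within the libraries read here, day and medium cannot be told apart where the medium changes. The study also sequenced controls kept in c-AMP alone and collected on days 38 and 45, which are not among these libraries. The oxygen level of the cultures is not given in the sources used here.

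Glycolysis breaks glucose down to pyruvate, and lactate dehydrogenase then turns pyruvate into lactate when it is not burned in mitochondria. HIF is a pair of an alpha subunit (HIF1A or EPAS1) and ARNT. When oxygen is plentiful, EGLN enzymes hydroxylate the alpha subunit, which is then destroyed; when oxygen is short, the subunit persists and switches on genes of glucose uptake, glycolysis and mitophagy through short promoter words, ACGTG or GCGTG. HIF1A is regulated mainly at the protein level, so its messenger RNA need not follow its activity. In thyroid cells, TSH and cAMP are known to raise glucose uptake.

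The promoters of LDHA, LDHB, PGK1 and HK2 are shown as examples of the letters of the HIF word, and were picked with the expression values known. LDHA is the lactate dehydrogenase subunit that passed in every step between sampled days, and its isoenzyme LDHB did not pass in any comparison. Sequences are from RefSeq (GRCh38.p14), the 250 bases before the start of transcription, 5′ to 3′ on the strand of the gene. Capitals mark each ACGTG or GCGTG on either strand, so the reverse forms CACGT and CACGC are also in capitals.
LDHA (chr11:18394313-18394562, plus strand): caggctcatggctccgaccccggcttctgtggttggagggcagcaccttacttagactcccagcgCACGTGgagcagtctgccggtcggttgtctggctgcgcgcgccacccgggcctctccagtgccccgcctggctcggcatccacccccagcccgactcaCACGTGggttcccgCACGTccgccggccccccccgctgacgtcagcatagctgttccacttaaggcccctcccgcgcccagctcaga
LDHB (chr12:21657843-21658092, minus strand): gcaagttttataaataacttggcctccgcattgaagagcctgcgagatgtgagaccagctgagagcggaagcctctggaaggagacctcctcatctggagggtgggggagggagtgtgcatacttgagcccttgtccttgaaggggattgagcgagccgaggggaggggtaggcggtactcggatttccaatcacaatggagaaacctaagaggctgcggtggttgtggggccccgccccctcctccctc
PGK1 (chrX:78103998-78104247, plus strand): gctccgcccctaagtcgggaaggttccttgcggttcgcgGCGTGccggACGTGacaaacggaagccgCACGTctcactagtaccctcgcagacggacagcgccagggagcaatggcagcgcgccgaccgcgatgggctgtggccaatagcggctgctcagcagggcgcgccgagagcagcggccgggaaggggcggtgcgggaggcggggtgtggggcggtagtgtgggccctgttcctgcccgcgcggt
HK2 (chr2:74833877-74834126, plus strand): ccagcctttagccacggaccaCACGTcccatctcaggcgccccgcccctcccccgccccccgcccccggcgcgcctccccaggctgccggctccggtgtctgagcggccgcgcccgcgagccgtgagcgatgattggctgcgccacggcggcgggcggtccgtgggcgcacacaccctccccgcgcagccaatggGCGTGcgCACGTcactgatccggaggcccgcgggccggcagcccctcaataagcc
LDHA held 5 ACGTG matches, of which 4 came from 2 copies of CACGTG, a palindrome that counts once on each strand. LDHB held neither word in the printed bases, HK2 held 2 ACGTG, and PGK1 held 2 in the printed bases and a further one just after the start. LDHA and LDHB each had 1 GCGTG just after the start. RefSeq windows from 250 bases before to 50 bases after the start were matched for 35 of the 38 genes. ACGTG or GCGTG was present in 24 of them (68.6%), against 13213 of 27305 windows of all genes (48.4%), and ACGTG in 13 (37.1%) against 21.6%. CACGTG, which MYC and other factors also read and which overlaps ACGTG, was present in 5 windows (14.3%) against 7.43%. The members' windows were richer in G and C, with a median of 69.7% against 58.3%, and these letters alone do not mark a bound site. The 13 with ACGTG were ALDOA, ALDOC, ANKRD37, BNIP3, CA9, EGLN1, ENO2, GAPDH, GPI, HK2, LDHA, P4HA1 and PGK1. Each gene had 1 window, at 1 RefSeq start, and other starts were not read. The windows of GAPDH, EPAS1 and EGLN3 lie inside the spans given below for these genes, not at their outer ends. The windows of ARNT, EGLN3, HK1, MXI1, P4HA2, PDK1, PFKM, PFKP, PGAM1, SLC16A3 and TPI1 held neither word. Of these, EGLN3 and PDK1 rose on day 38, as did LDHA, PGK1 and HK2 with ACGTG. CA9 and ALDOA, also with ACGTG, had no call on day 38. A link between the words and the changes in expression was not tested.

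Summed over the 38 genes, expression fell, recovered in part, peaked and fell again. The sum was 8194 and 7449 CPM on day 16, 3964 and 3861 on day 23, 5626 and 5556 on day 31, 15764 and 14024 on day 38, and 9189 and 8621 on day 45. The libraries of one day did not overlap those of another in this sum, whereas as a share of all counts in a library, with no TMM factors, day 16 (0.856% and 0.739%) overlapped day 45 (0.874% and 0.823%). The highest daily mean stood on day 38 for 29 genes, against 18.1% of all genes tested, and the lowest on day 23 for 30 genes, against 20.2%. A change on any day passed for 35 of the 38 genes, against 36.3% of all genes tested (edgeR quasi-likelihood test over the day means, adjusted over all genes). PFKL, LDHB and ARNT did not pass. Lower RNA per cell and fewer cells that express a gene cannot be told apart in such bulk samples. The same rise and fall shows across the rows of the plot of levels by library.

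**Figure D1:**
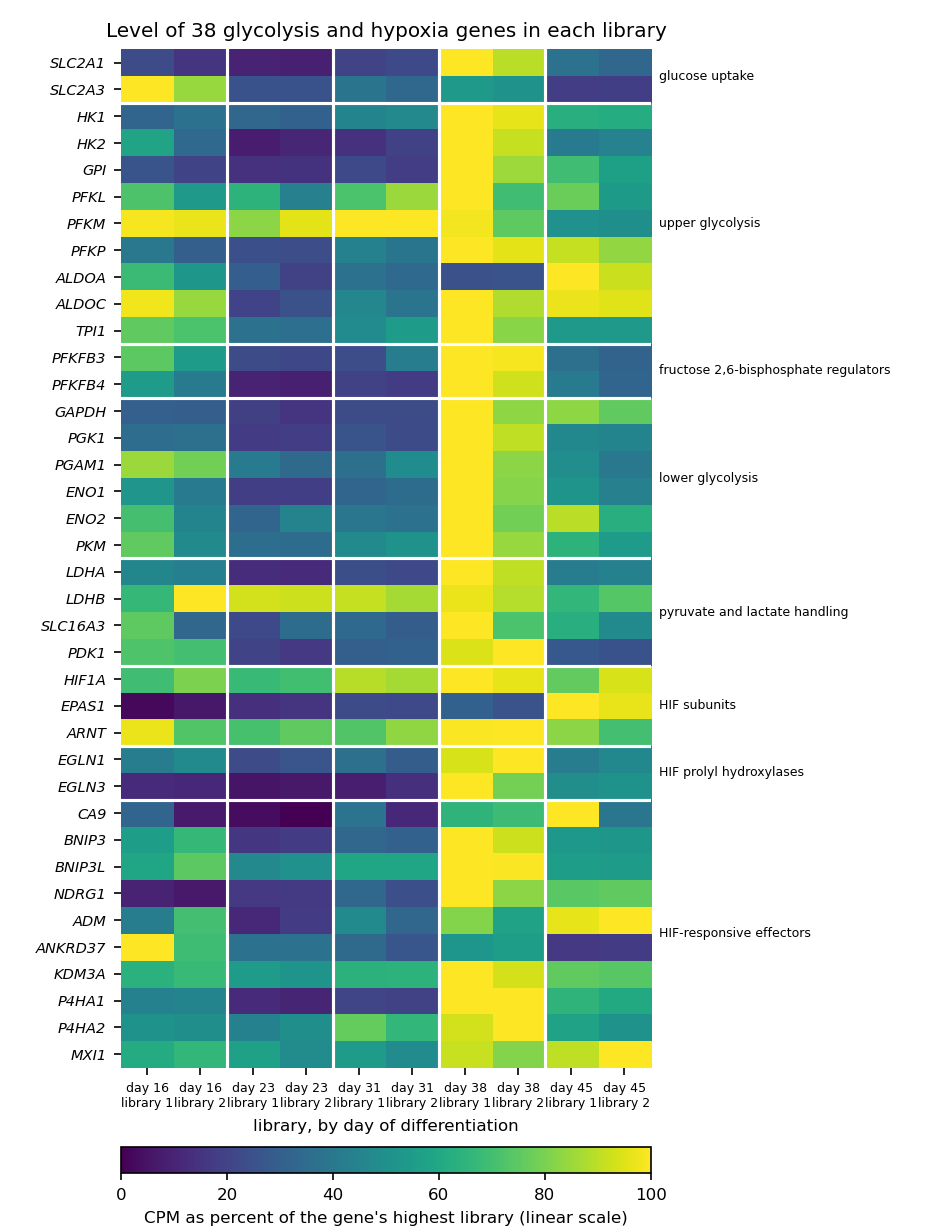
Level of each of the 38 genes (rows, by role) in each of the 10 libraries (columns, by day), as CPM in percent of the highest library of that gene on a linear colour scale. Day 38 holds the brightest cells for most rows and day 23 the darkest, and by daily mean SLC2A3, PFKM, ALDOA, ALDOC, ENO2, LDHB, EPAS1, CA9, NDRG1, ADM, ANKRD37 and MXI1 depart from one or the other.

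From day 16 to day 23, 23 members fell and 2 rose, against 5.33% of all genes lower and 5.6% higher (10.9% in either direction). The median log2 fold change of the 38 was -0.89, where that of all genes was -0.02. The next step, day 23 to day 31, raised 15 members and lowered none (1.58% of all genes higher and 0.666% lower, 2.25% in all, with a members' median of 0.53). This count was the least stable, with 8, 6 and 8 members when day 23 library 1, day 23 library 2 or day 31 library 1 was left out. Only SLC2A1, ENO1, LDHA, BNIP3 and P4HA1 of the 15 kept their call whichever of the 10 libraries was left out. From day 31 to day 38, 27 members rose and none fell (8.8% and 6.23% of all genes, with a members' median of 1.18). From day 38 to day 45, 22 fell and 2 rose (6.35% and 4.85%, 11.2% in all, with a members' median of -0.66). Neighbouring steps share the libraries of a day, so a low value on day 23 or a high one on day 38 enters both.

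The steps from day 16 to day 23 and from day 31 to day 38 share no library. Of the 23 members that fell on day 23, 22 rose on day 38 (95.7% of those that fell and 81.5% of those that rose). Over all genes the same shares were 39.1% and 23.7%. Both calls were made for 57.9% of the members and 2.08% of all genes. The exception was ADM, a secreted vasodilator peptide, which did not pass on day 38 (log2 fold change 0.78 ± 0.38, SE). Between 18 and 22 members did both when 1 library was left out. Scaling by library size alone moved the median of all genes to -0.20 from day 31 to day 38 and turned the split of all genes from 1850 higher and 1310 lower to 1182 higher and 2368 lower. With that scaling 26 members still rose and the members' median was 0.96. SLC2A3 lost its call there (0.33, edgeR adjusted p = 0.0568).

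**Figure D2:**
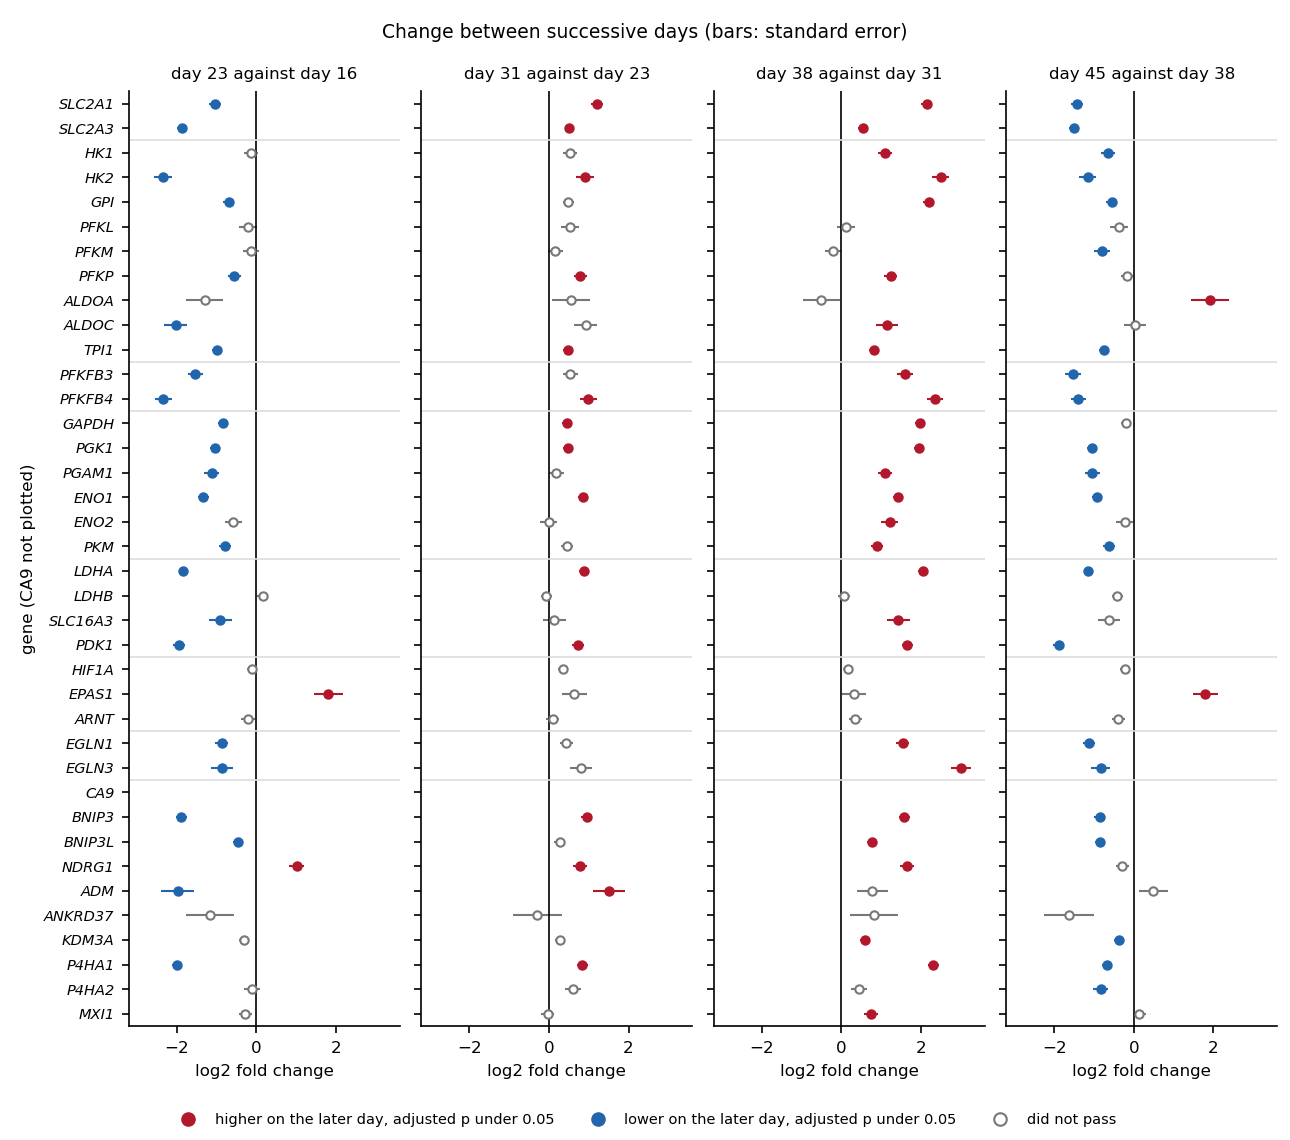
Log2 fold change with its standard error (bars) for each gene (vertical axis, by role) in the 4 steps between sampled days, with filled points for adjusted p under 0.05 in edgeR. Points lie left of 0 for most genes on day 23 and day 45 and right of 0 for most on days 31 and 38, and CA9, which lay under 3 counts in both libraries of day 23, is not plotted.

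Glucose enters through facilitative transporters. SLC2A1 (GLUT1, chromosome 1, 42925353 to 42958893, minus strand), the widely used transporter, stood at 412 and 264 CPM on day 16, 173 and 157 on day 23, 367 and 394 on day 31, 1776 and 1591 on day 38, and 667 and 586 on day 45. Both libraries of day 38 lay above all others and both of day 23 below all others. It fell on day 23 (log2 fold change -1.04 ± 0.14, SE; edgeR adjusted p = 2.03e-06), rose on days 31 (1.21 ± 0.14) and 38 (2.15 ± 0.14, a 4.43-fold rise) and fell on day 45 (-1.43 ± 0.14). SLC2A3 (GLUT3, a high-affinity transporter) stood at 1259 and 1065 CPM on day 16, 317 and 318 on day 23, 483 and 425 on day 31, 679 and 645 on day 38, and 230.0 and 235 on day 45. Its highest libraries were those of day 16, and by day 45 it was 5-fold below them (adjusted p = 8.99e-17, edgeR), while SLC2A1 ended 1.85-fold above its start. Per length of the main transcript, SLC2A1 stood to SLC2A3 as 0.37 and 0.281 on day 16, 0.615 and 0.557 on day 23, 0.86 and 1.05 on day 31, 2.96 and 2.79 on day 38, and 3.28 and 2.82 on day 45. The order of the pair thus changed from SLC2A3 above SLC2A1 to the reverse, with day 31 near equality. Of the SLC2A3 transcript, 20.7% of its 50-base words also occur elsewhere in the genome, and its rise on day 38 lost its call without day 31 library 2 (0.45, adjusted p = 0.0509, edgeR).

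The upper part of the pathway traps glucose as hexose phosphate and cleaves it. Of its 9 members, 5 fell on day 23 (5.33% of all genes), 3 rose on day 31 (1.58%), 6 rose on day 38 (8.8%), and on day 45 5 fell (6.35%) and 1 rose (4.85%). Without day 38 library 1, the day 45 falls of HK1, GPI and PFKM lost their calls. HK2, the hexokinase isoform that HIF is known to induce, stood at 111 and 64.8 CPM on day 16, 14.4 and 20.2 on day 23, 26.8 and 37.8 on day 31, 190.0 and 174 on day 38, and 78.7 and 84.1 on day 45. Day 23 and day 31 held its lowest libraries and day 38 its highest, and the 2 libraries of day 16 lay apart from each other. It fell 5.07-fold on day 23 (-2.34 ± 0.22, edgeR adjusted p = 1.56e-09) and rose 5.64-fold on day 38 (2.50 ± 0.22, adjusted p = 5.92e-11). HK1, the housekeeping hexokinase, stood at 40.3 and 46.7 CPM on day 16, 40.9 and 38.4 on day 23, 55.9 and 58.3 on day 31, 124 and 119.8 on day 38, and 78.4 and 77.1 on day 45. It did not pass on day 23 (-0.13 ± 0.18) and rose on day 38 (1.10 ± 0.18). Per length, HK2 stood to HK1 as 1.76 and 0.889 on day 16, 0.226 and 0.337 on day 23, 0.307 and 0.415 on day 31, 0.979 and 0.928 on day 38, and 0.643 and 0.698 on day 45. HK1 therefore lay above HK2 in every library except day 16 library 1. The HK1 fall on day 45 (-0.65 ± 0.17) lost its call without any 1 of the libraries of days 38 and 45, with adjusted p between 0.0611 and 0.127 in edgeR.

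GPI, which turns glucose phosphate into fructose phosphate, stood at 209 and 165 CPM on day 16, 114 and 117 on day 23, 177 and 147 on day 31, 799 and 682 on day 38, and 553 and 456 on day 45. It rose 4.57-fold on day 38 (edgeR adjusted p = 4.45e-14), and both day 45 libraries stayed above every library of days 16 to 31. The GPI fall on day 45 lost its call without day 38 library 1 (log2 fold change -0.44) or day 45 library 2 (-0.42). The phosphofructokinases commit hexose to glycolysis. PFKP, the platelet form, stood at 70.1 and 52.9 CPM on day 16, 42.4 and 41.3 on day 23, 76.5 and 68.2 on day 31, 175 and 168 on day 38, and 159 and 146 on day 45. Its day 38 and day 45 libraries lay close together and above the rest, and it rose on day 38 (1.24 ± 0.16) with no call on day 45 (-0.17 ± 0.16). PFKM, the muscle form, ran from 32.9 to 66 CPM over the 10 libraries and fell on day 45 (-0.79 ± 0.20, adjusted p = 0.00669 in edgeR), a call lost without day 38 library 1 (-0.58, adjusted p = 0.22) or day 45 library 2 (-0.78, adjusted p = 0.0506). PFKP stood to PFKM, per length, as 1.27 and 0.973 on day 16 and 5.61 and 5.24 on day 45. PFKL, the liver form, ran from 37.7 to 86.8 CPM and passed in no comparison. On day 23 PFKP's fall (-0.56 ± 0.17) lost its call without day 16 library 1 (-0.32, adjusted p = 0.299), day 23 library 1 (-0.58, 0.11) or day 23 library 2 (-0.54, 0.153).

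Aldolase then splits the sugar. ALDOC stood at 35 and 30.3 CPM on day 16, 7.2 and 8.8 on day 23, 16.6 and 13.7 on day 31, 35.7 and 31.5 on day 38, and 34.7 and 34 on day 45. It fell on day 23 (-2.03 ± 0.29, edgeR adjusted p = 5.75e-06), and days 16, 38 and 45 held similar levels. The rise on day 38 (1.15 ± 0.28) lost its call without day 31 library 2 (1.01, adjusted p = 0.0537) or day 38 library 1 (1.06, adjusted p = 0.0683). ALDOA, the aldolase most tissues use, stood only at 12.9 and 10.1 CPM on day 16, 5.65 and 3.66 on day 23, 7.16 and 6.51 on day 31, 4.75 and 4.89 on day 38, and 19 and 17.5 on day 45. It alone of the upper genes rose on day 45 (1.92 ± 0.47, adjusted p = 0.00475, edgeR), a call lost without either day 38 library (adjusted p = 0.0757 and 0.0748). Another gene on the same strand covers 42.8% of ALDOA exon bases, and reads shared with it could have been set aside in counting, so the ALDOA level is uncertain. TPI1, which interconverts the 2 triose phosphates, ran from 156 to 426 CPM and fell, rose, rose and fell over the 4 steps (-0.99 ± 0.13, 0.47 ± 0.13, 0.82 ± 0.13 and -0.75 ± 0.13), the day 31 call being lost without any 1 of 7 libraries.

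PFKFB3 and PFKFB4 make and break the fructose bisphosphate that is the strongest activator of phosphofructokinase. PFKFB3 stood at 134 and 98.1 CPM on day 16, 41.2 and 39.2 on day 23, 42.4 and 75 on day 31, 179 and 177 on day 38, and 65.9 and 57.3 on day 45. PFKFB4 stood at 86.5 and 63.9 CPM on day 16, 15.7 and 13.9 on day 23, 31.2 and 27.9 on day 31, 157 and 146 on day 38, and 64.4 and 51.5 on day 45. Both fell on day 23, PFKFB3 2.89-fold and PFKFB4 5.06-fold (edgeR adjusted p = 9.47e-07 and 2.45e-10), with no overlap between the libraries of days 16 and 23. On day 38 PFKFB4 rose 5.12-fold (2.36 ± 0.20) and PFKFB3 3.04-fold (1.60 ± 0.20). Both fell again on day 45, by 1.53 for PFKFB3 and 1.39 for PFKFB4 on the log2 scale. Between day 45 and day 16 PFKFB3 passed (-0.92 ± 0.20) and PFKFB4 did not (-0.38 ± 0.19), except without day 16 library 2 (-0.58, adjusted p = 0.0408, edgeR), and whether the 2 genes differ in this was not tested.

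The lower, energy-yielding reactions held the most abundant members. Of these 6 genes, 5 fell on day 23 (5.33% of all genes), 3 rose on day 31 (1.58%), all 6 rose on day 38 (8.8%) and 4 fell on day 45 (6.35%). The day 31 rise of GAPDH lost its call without day 23 library 2 or either day 31 library. That of PGK1 lost its call without any 1 of the libraries of days 23 and 31. GAPDH (chromosome 12, 6534512 to 6538374, plus strand), which oxidises the triose phosphate and is often used to normalize expression, stood at 748 and 731 CPM on day 16, 455 and 369 on day 23, 566 and 557 on day 31, 2425 and 2010 on day 38, and 2017 and 1829 on day 45. Its day 38 and day 45 libraries all lay above every earlier one. It fell 1.79-fold on day 23 (edgeR adjusted p = 2.52e-06), rose 3.95-fold on day 38 (adjusted p = 6.67e-15) and did not pass on day 45 (-0.21 ± 0.12). PGK1, which makes ATP, stood at 330.0 and 342 CPM on day 16, 159 and 167 on day 23, 241 and 216 on day 31, 926 and 839 on day 38, and 432 and 419 on day 45. It rose 3.87-fold on day 38 (adjusted p = 1.95e-14, edgeR) and fell 2.07-fold on day 45. The small excess of PGK1 on day 45 over day 16 (0.34 ± 0.12) lost its call without day 16 library 1, day 45 library 1 or day 45 library 2 (0.31, 0.32 and 0.36, adjusted p = 0.0943, 0.119 and 0.0742) and with scaling by library size alone (0.25, adjusted p = 0.134).

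ENO1, the common enolase, stood at 728 and 579 CPM on day 16, 262 and 258 on day 23, 456 and 493 on day 31, 1400 and 1144 on day 38, and 722 and 611 on day 45. It passed in all 4 steps (-1.33 ± 0.13, 0.87 ± 0.13, 1.42 ± 0.13 and -0.93 ± 0.13), and day 45 overlapped day 16 (0.03 ± 0.13). ENO2, known as the neuronal enolase, stood at 86.7 and 55.3 CPM on day 16, 39.9 and 54.9 on day 23, 48.3 and 46.3 on day 31, 123 and 96.6 on day 38, and 110.4 and 77 on day 45. It rose on day 38 (1.21 ± 0.21, edgeR adjusted p = 5.51e-05), and the day 38 and day 45 libraries overlapped. Its day 23 value (-0.58 ± 0.21, adjusted p = 0.0722) passed without day 16 library 2 (-0.87, adjusted p = 0.00831), without a filter on low counts (-0.57, 0.031) and with a replicate block (-0.54, 0.036), and its day 45 excess over day 16 passed without day 16 library 1 (0.75, 0.0189). PGAM1, the phosphoglycerate mutase, stood at 107 and 99.6 CPM on day 16, 51.6 and 43.5 on day 23, 46.8 and 61.5 on day 31, 127 and 105 on day 38, and 62.1 and 50.8 on day 45. It fell on day 23 (-1.12 ± 0.19), rose on day 38 (1.10 ± 0.18) and fell on day 45 (-1.04 ± 0.19), but 64.2% of its transcript's 50-base words occur elsewhere in the genome, so its counts are uncertain. PKM, the pyruvate kinase of most growing tissues, ran from 242 to 680 CPM and passed on day 23 (-0.79 ± 0.15), day 38 (0.90 ± 0.15) and day 45 (-0.62 ± 0.15). The PKM call on day 45 was lost without day 38 library 1 (-0.50, adjusted p = 0.0876) or day 45 library 2 (-0.51, adjusted p = 0.0946). Its gene-level count does not separate its splice forms. In CPM per kilobase of transcript GAPDH was the highest member on every day, with 1726 ± 228 (SD, n = 2) on day 38. Next on day 38 came ENO1 at 714 ± 101 and LDHA at 683 ± 48.4, which did not differ beyond their spread, and SLC2A1 at 497 ± 38.8.

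Lactate dehydrogenase is built from LDHA and LDHB subunits. LDHA (chromosome 11, 18394560 to 18408425, plus strand), the subunit of the muscle form that favours lactate, stood at 738 and 696 CPM on day 16, 206 and 195 on day 23, 385 and 353 on day 31, 1608 and 1455 on day 38, and 678 and 705 on day 45. The libraries of days 16 and 45 lay close together, those of day 23 far below and those of day 38 far above. It fell 3.57-fold on day 23 (-1.84 ± 0.12, edgeR adjusted p = 8.21e-14), rose on day 31 (0.88 ± 0.11), rose 4.15-fold on day 38 (2.05 ± 0.12, adjusted p = 1.17e-15) and fell on day 45 (-1.15 ± 0.11), ending where it began (-0.05 ± 0.11). LDHB, the heart-form subunit, stood at 236 and 354 CPM on day 16, 329.9 and 327 on day 23, 322 and 306 on day 31, 344 and 314 on day 38, and 234 and 261 on day 45. The 2 libraries of day 16 alone spanned nearly its whole range, and its nearest approach to a call was on day 45 (-0.41 ± 0.14, adjusted p = 0.0572 in edgeR), with 33.4% of its exon bases under another gene of the same strand. Per length, LDHA stood to LDHB as 1.82 and 1.14 on day 16, 0.363 and 0.347 on day 23, 0.695 and 0.67 on day 31, 2.72 and 2.69 on day 38, and 1.68 and 1.57 on day 45. LDHB was thus the more abundant subunit message on days 23 and 31 and LDHA on days 16, 38 and 45.

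**Figure D3:**
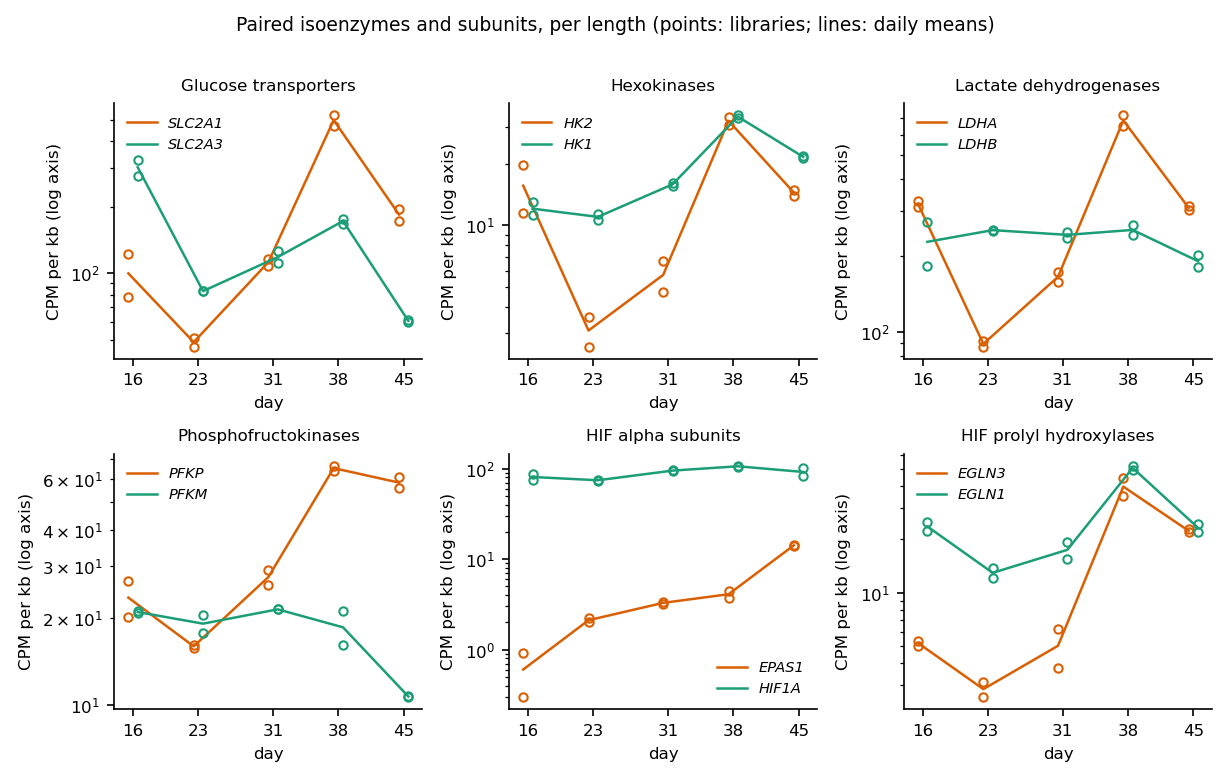
CPM per kilobase of the main transcript (log axis) by day for 6 pairs of isoenzymes, subunits or hydroxylases, with open points for libraries and lines through daily means. LDHA and HK2 swing while LDHB and HK1 move less, SLC2A1 and PFKP end above SLC2A3 and PFKM, and EPAS1 climbs while HIF1A moves less.

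PDK1 blocks the entry of pyruvate into mitochondria by phosphorylating pyruvate dehydrogenase and is a known HIF target. It stood at 229 and 221 CPM on day 16, 64.4 and 52.8 on day 23, 95.9 and 98.6 on day 31, 299 and 316 on day 38, and 86.6 and 79.8 on day 45. It fell 3.84-fold on day 23 (edgeR adjusted p = 5.95e-12), rose 3.16-fold on day 38 and fell 3.69-fold on day 45 (adjusted p = 1.48e-11). Both day 45 libraries lay below both of day 16 (-1.43 ± 0.14). SLC16A3 (MCT4), which exports lactate, stood at 63.1 and 27.7 CPM on day 16, 18.6 and 29.7 on day 23, 28.6 and 24.7 on day 31, 83.9 and 60.2 on day 38, and 52.8 and 40.3 on day 45. It rose on day 38 (1.44 ± 0.28, adjusted p = 0.000316, edgeR), when both libraries exceeded those of days 23 and 31. Its fall on day 23 (-0.91 ± 0.29) rested on day 16 library 1, without which it was -0.18 (adjusted p = 0.807), and was also lost without day 23 library 1 (-0.61, adjusted p = 0.345), day 31 library 1 or day 31 library 2 (adjusted p = 0.0563 and 0.0614) and in DESeq2 (adjusted p = 0.0576).

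Of the 3 HIF subunits, only EPAS1 passed in any of the 5 comparisons. HIF1A stood at 295 and 342 CPM on day 16, 289 and 296 on day 23, 381 and 369 on day 31, 426 and 410.1 on day 38, and 324 and 399.8 on day 45. Its libraries spanned 289 to 426 CPM over the whole course, with the lowest daily mean on day 23 and the highest on day 38. It passed over all days together (edgeR adjusted p = 0.00979) but in none of the 5 comparisons, and its log2 fold changes were -0.12 ± 0.13 on day 23 and 0.16 ± 0.13 on day 38. ARNT, the partner of both alpha subunits, ran from 77.6 to 111 CPM and passed nowhere. EPAS1 (HIF2A, chromosome 2, 46293667 to 46386697, plus strand), the other alpha subunit, stood at 1.52 and 4.68 CPM on day 16, 10.3 and 11.4 on day 23, 17.4 and 16.4 on day 31, 23.1 and 19 on day 38, and 74.3 and 71.8 on day 45. It was higher on each later day, with no overlap between days, and it alone of the 38 rose both on day 23 (1.80 ± 0.37, adjusted p = 0.000744, edgeR) and on day 45 (1.79 ± 0.31, adjusted p = 6.96e-05). From day 16 to day 45 it rose 23.4-fold, the widest change among the members, from 12 and 38 counts. The fold was 15.5 without day 16 library 1 and 47.6 without day 16 library 2, and the day 23 rise was 2.82 on the log2 scale without day 16 library 2. The day 23 call did not hold when the 4 libraries of days 16 and 23 were fitted alone (adjusted p = 0.0623). Per length, EPAS1 still stood to HIF1A only as 0.176 and 0.138 on day 45.

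EGLN1 and EGLN3 hydroxylate the alpha subunits and are themselves known to be induced by HIF. EGLN3 (chromosome 14, 33924227 to 34462774, minus strand) stood at 14.5 and 13.5 CPM on day 16, 6.87 and 8.46 on day 23, 10.1 and 16.9 on day 31, 121 and 95.5 on day 38, and 59.5 and 61.7 on day 45. Day 38 held its highest libraries and day 45 its next, both apart from all earlier days. It rose 8.02-fold on day 38 (edgeR adjusted p = 4.37e-11), the widest rise of any member in that step, and ended 4.33-fold above day 16. EGLN1, the main oxygen sensor of most cells, stood at 96.7 and 109 CPM on day 16, 52.2 and 60.0 on day 23, 84 and 67.5 on day 31, 214 and 228 on day 38, and 95.3 and 107 on day 45. It fell on day 23 (-0.87 ± 0.16), rose 2.91-fold on day 38 and fell on day 45 (-1.13 ± 0.16), although 55.8% of its exon bases lie under another gene of the same strand. The smaller EGLN3 falls lost their calls more easily. On day 23 (-0.87 ± 0.27) adjusted p rose to between 0.0551 and 0.221 without any 1 of the libraries of days 16, 23 and 38. On day 45 (-0.83 ± 0.23) it rose to between 0.0839 and 0.306 without day 38 library 1 or either day 45 library.

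Among the 10 effectors, P4HA1, BNIP3, BNIP3L, KDM3A and P4HA2 had their lowest and highest days in common with LDHA. P4HA1, a subunit of the enzyme that hydroxylates collagen prolines, stood at 264 and 270.5 CPM on day 16, 72.8 and 61.7 on day 23, 126 and 115 on day 31, 599.8 and 598 on day 38, and 390.2 and 364 on day 45. It fell 3.97-fold on day 23 (edgeR adjusted p = 2.53e-13) and rose 4.96-fold on day 38 (adjusted p = 1.31e-15), and its day 45 libraries stayed above day 16 (0.50 ± 0.13). BNIP3, a mitophagy receptor, stood at 198 and 235 CPM on day 16, 55.5 and 61.8 on day 23, 117 and 109.8 on day 31, 353 and 326 on day 38, and 188 and 187 on day 45. It fell 3.69-fold and rose 3-fold in the same steps, and ended near its start (-0.21 ± 0.14). BNIP3L, its relative, ran from 188 to 400 CPM, with a rise on day 38 (0.76 ± 0.13) and a fall on day 45 (-0.85 ± 0.13). The BNIP3L fall on day 23 (-0.46 ± 0.13) was lost without day 16 library 2, day 23 library 1 or day 23 library 2 (adjusted p = 0.221, 0.169 and 0.0753, edgeR).

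NDRG1, a protein induced by stress and hypoxia, stood at 25.5 and 16.7 CPM on day 16, 42.3 and 42.5 on day 23, 84.3 and 61.8 on day 31, 252 and 209 on day 38, and 187 and 190.3 on day 45. Every later library exceeded those of day 16, and it was the only member besides EPAS1 to rise on day 23 (1.01 ± 0.19, edgeR adjusted p = 0.000276). It rose again on day 38 (1.66 ± 0.18) and on day 45 was 8.95-fold above day 16 (adjusted p = 3.36e-15). ADM stood at 11 and 18.3 CPM on day 16, 2.88 and 4.57 on day 23, 12.6 and 8.61 on day 31, 21.4 and 15.1 on day 38, and 25.3 and 26.2 on day 45. It fell on day 23 (-1.98 ± 0.41, adjusted p = 0.000946 in edgeR), and its rise on day 31 (1.51 ± 0.41, adjusted p = 0.0396) was lost without any 1 of 8 libraries, with adjusted p up to 0.402. ANKRD37, a small ankyrin protein known as a HIF target, stood at 12.2 and 8.37 CPM on day 16, 4.54 and 4.57 on day 23, 4.2 and 3.26 on day 31, 6.37 and 6.75 on day 38, and 2.03 and 2.18 on day 45. It fell from day 16 to day 45 (-2.27 ± 0.63, adjusted p = 0.0066), which was lost without day 16 library 1 (-1.99, adjusted p = 0.0605), and 40.3% of its exon bases lie under a gene of the other strand.

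KDM3A, a histone demethylase, rose on day 38 (0.59 ± 0.13), and its fall on day 45 (-0.37 ± 0.13, edgeR adjusted p = 0.0496) was lost without any 1 of 8 libraries. MXI1, an antagonist of MYC, rose on day 38 (0.74 ± 0.17), a call lost without day 38 library 1 (0.65, adjusted p = 0.0539). P4HA2, another subunit of the collagen hydroxylase, fell only on day 45 (-0.83 ± 0.20), a call lost without day 38 library 2 or day 45 library 2 (adjusted p = 0.0725 and 0.0558, edgeR). CA9, the carbonic anhydrase often stained to mark hypoxic cells, had 18 and 4 counts on day 16, 2 and 0 on day 23, 26 and 7 on day 31, 42 and 41 on day 38, and 48 and 25 on day 45. No comparison of CA9 passed, and on day 23 it lay under the floor of 3 counts in both libraries.

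Across the whole course, from day 16 to day 45, 11 members rose and 7 fell, against 12.9% and 11.7% of all genes (24.6% in all), and the median of the 38 was 0.07. Those that rose were SLC2A1, HK1, GPI, PFKP, GAPDH, PGK1, EPAS1, EGLN3, NDRG1, P4HA1 and MXI1. Those that fell were SLC2A3, PFKM, TPI1, PFKFB3, PGAM1, PDK1 and ANKRD37. The widest were EPAS1 (4.55 ± 0.37), NDRG1 (3.16 ± 0.19) and EGLN3 (2.11 ± 0.25) upwards and SLC2A3 (-2.32 ± 0.12) and ANKRD37 downwards. The calls of MXI1 (0.58 ± 0.17) and TPI1 (-0.45 ± 0.13) were each lost without 1 of 2 libraries: MXI1 without day 16 library 1 (adjusted p = 0.0526) or day 45 library 2 (0.0826), and TPI1 without day 45 library 1 (0.0509) or day 45 library 2 (0.0513).

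A further list of 39 hypoxia-responsive genes outside the members was, like the members, chosen with earlier results of these data known. Its changes are therefore not independent support for the members' pattern. Of the 38 tested in the same 4 steps, 2 were higher and 14 lower on day 23, and 8 higher and none lower on day 31. On day 38, 26 were higher and 1 lower, and on day 45, 3 were higher and 17 lower. The shares of all genes higher and lower were 5.6% and 5.33% on day 23, 1.58% and 0.666% on day 31, 8.8% and 6.23% on day 38, and 4.85% and 6.35% on day 45. VEGFA, the main angiogenic factor, named after its values were seen, stood at 231 and 239 CPM on day 16, 99.2 and 111 on day 23, 173 and 169 on day 31, 1374 and 1303 on day 38, and 867 and 920.2 on day 45. It had the same low day and the same high day as LDHA. PPP1R3C, which directs glycogen synthesis, rose on day 38 (4.13 ± 0.42, edgeR adjusted p = 2.2e-09) from 1.23 and 7.10 to 70.8 and 72.3 CPM. LOXL2, a collagen cross-linking enzyme, rose there from 0 and 5.58 to 58.3 and 56.1 CPM. BHLHE41, a clock-linked repressor, had 21 and 54 counts on day 16, 0 and 0 on day 23, 3 and 3 on day 31, 101 and 84 on day 38, and 115 and 138 on day 45. The 2 that rose on day 23, which became 4 without day 16 library 1, were IGFBP3, which binds insulin-like growth factors (3.51 ± 0.30), and HMOX1, the heme oxygenase (2.62 ± 0.53), whose call was lost without day 23 library 1 (1.81, adjusted p = 0.0532, edgeR). HMOX1 also rose on day 45 (4.03 ± 0.46). MIF was listed at 0 in every library, and another annotated gene covers 94.1% of its exon bases.

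Other enzymes of glucose use were counted in the same steps, against the same shares of all genes. Of 29 tested isoenzymes and other entry genes, 1 rose and 5 fell on day 23, 1 rose on day 31, 2 rose and 2 fell on day 38, and 3 rose and 1 fell on day 45. The day 23 rise was lost without either of 2 libraries, and the day 31 rise without 1 library. The 5 lower on day 23 became 3 without day 16 library 1 or either day 23 library. On day 38 the 2 higher became 1 without any 1 of the libraries of days 31 and 38, and the 2 lower became none without day 31 library 1 and 1 without day 31 library 2 or day 38 library 2. The 3 higher on day 45 became 1 without day 38 library 2. PGM1, which links glucose 1-phosphate to glycolysis, fell on day 23 (-1.59 ± 0.22), rose on day 38 (2.12 ± 0.22) and fell on day 45 (-1.08 ± 0.21), the order shown by LDHA. Of 15 tested gluconeogenesis and glycogen genes, 2 fell on day 23, none passed on day 31, 6 rose and 1 fell on day 38, and 1 rose and 1 fell on day 45. The 6 that rose became 3 without day 31 library 1 and 2 without day 31 library 2 or either day 38 library. The 2 that fell on day 23 became 1 without day 16 library 1 or day 23 library 1. The fall on day 38 was lost without any 1 of 5 libraries. On day 45 the rise was lost without any 1 of 3 libraries and the fall without any 1 of 4. The glycogen phosphorylase PYGM fell on day 23 (-1.63 ± 0.25) and rose on day 38 (2.12 ± 0.25). Of the 14 genes that carry pyruvate into mitochondria, 1 rose and 1 fell on day 23, none passed on day 31, 1 rose and 1 fell on day 38, and 1 rose on day 45. PDK4 moved opposite to PDK1, with 1.65 ± 0.17 on day 23, -1.13 ± 0.17 on day 38 and 0.98 ± 0.17 on day 45. The 8 pentose phosphate genes had 2 higher on day 23, none on day 31 and 3 lower on day 45, which became 1 without day 38 library 1 and none without day 38 library 2 or day 45 library 2. The 2 higher on day 23 became 1 without day 16 library 2 or either day 23 library. Of 11 other HIF pathway genes tested, 4 rose on day 23, none passed on day 31, 2 rose and 3 fell on day 38, and 1 rose and 1 fell on day 45. The day 45 rise was lost without any 1 of 7 libraries. The 2 that rose on day 38 became 3 without day 23 library 1 and 1 without day 31 library 1 or either day 38 library. HIF3A, an alpha subunit that can oppose the others, rose on day 38 (1.43 ± 0.13) and EGLN2 was listed at 0 in every library, with other annotated genes of the same strand over 30.6% of its exon bases. Differences between the 38 genes and these lists were not tested.

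**Figure D4:**
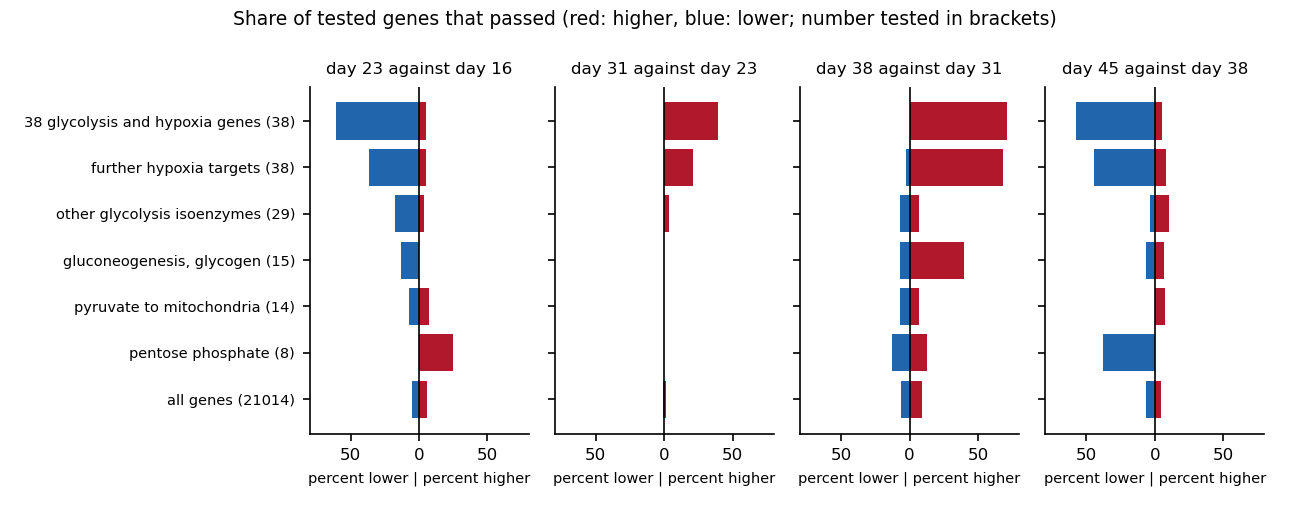
Percent of the tested genes of each list (vertical axis, number tested in brackets) that passed edgeR at adjusted p under 0.05 in each step, to the right when higher and to the left when lower. On day 38 the 38 genes (27 higher) and the further hypoxia targets (26 higher) lie far right of all genes (8.8% higher), gluconeogenesis and glycogen (6 of 15 higher) also lies right of all genes, and the other plotted lists lie nearer to 0 than these.

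Markers of the labelled tissue and of other cells also changed over the course, and were counted against the same shares of all genes. Their changes did not all follow those of the members. Of the 12 thyroid markers none was at 0 in every library, and 6 rose and 3 fell on day 23, none passed on day 31, 6 rose on day 38, and 2 rose and 3 fell on day 45, the 2 becoming 1 without any 1 of the libraries of days 31, 38 and 45. Their sum was 1905 and 1505 CPM on day 16, 1899 and 1840 on day 23, 1855 and 1830 on day 31, 8301 and 7488 on day 38, and 10107 and 9793 on day 45, led by TG. The 6 fibroblast markers, led by COL3A1 and none of them at 0 in every library, summed to 663 and 924 CPM on day 16, 1396 and 1345 on day 23, 1134 and 1411 on day 31, 3181 and 3341 on day 38, and 3492 and 2814 on day 45, with 3 higher and 1 lower on day 38. Of these markers, 3 rose and 2 fell on day 23, 1 fell on day 31, and 3 rose and none fell on day 45. The fall on day 31 was lost without any 1 of 3 libraries. The 6 cardiovascular and muscle markers, led by MYH6, summed to 17.2 and 14.2 CPM on day 16, 24.3 and 21.1 on day 23, 32.3 and 27.8 on day 31, 189 and 192 on day 38, and 163 and 175 on day 45, with 4 higher on day 38. The 5 surfactant markers, led by SFTPB, summed to 3.8 and 2.34 CPM on day 16, 165 and 149 on day 23, 501 and 508 on day 31, 7.34 and 10.2 on day 38, and 46.1 and 52.2 on day 45. Of the 4 tested, 1 rose on day 23, 1 rose on day 31, 1 fell on day 38 and 1 rose on day 45. Their median log2 fold change on day 23 was -1.64, so the sum does not stand for every marker of this list. RN7SK, a small nuclear RNA, took 6.82% and 7.11% of counts on day 16, 4.40% and 4.42% on day 23, 2.92% and 3.86% on day 31, 8.17% and 6.76% on day 38, and 7.04% and 5.14% on day 45. Its share was lower in the libraries of days 23 and 31 than in all others. The part of these other cells and of RN7SK in the members' changes was not tested.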

How the data were processed

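RNA-seq was done on NKX2-1GFP+ cells sorted from human thyroid organoids. Upstream, the authors used Trimmomatic for trimming, HISAT2 for alignment to GRCh38.p13 and HTSeq for counting (submitters' processing notes and the study's methods, versions not given in the sources used here), and deposited raw counts by gene symbol, with no normalization. The strand setting and the treatment of reads with several matches are not given in the sources used here, so overlapping genes and genes with close copies are reported as uncertain.

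Libraries were assigned to days from their labels. A gene needed 5 counts in 2 libraries or more to enter the test (21014 did), which was done with edgeR 4.0.16 in R 4.3.3 (quasi-likelihood test, TMM factors, 1 mean per day over all 10 libraries, 5 residual degrees of freedom), with p-values adjusted by Benjamini-Hochberg over all genes and a threshold of 0.05. Standard errors were taken as the log2 fold change over the root of F and are approximate. CPM are counts over library size times TMM factor. Libraries of one day correlated at 0.94 to 0.970 and differed by more than sampling noise. The study names 2 biological replicates, from pooled wells of 1 line, so p-values measure the spread between such libraries. Positions, lengths and overlaps are from GENCODE 44, which matched 91.1% of symbols.

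Alternatives were library size alone, upper-quartile factors, DESeq2 1.42.0, other filters, a fold threshold, the 4 libraries of a comparison alone, a replicate block and leaving out each library. Members with a mean of at least 5 CPM, a call on any day and a log2 fold change of at least 1 in 1 of the 5 comparisons are given in every library, and at most 3 called genes of each further list are named per comparison. The members and lists were chosen with earlier results of these data known. Marker lists of airway basal, goblet, endothelial, neural, pluripotent, blood and epithelial cells were also read. The day 38 count of the pentose phosphate list is not reported here.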

Additional observations from a re-analysis of the deposited data

How the results depend on the processing

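The count of members that passed stayed within 1.5 times its value under library size alone, upper-quartile factors, DESeq2, the other filters and the 4 libraries of a comparison alone. The summed level kept the same order of days, with means by library size alone of 4108 CPM on day 23, 5974 on day 31 and 8484 on day 45, and by library size without RN7SK, also with no TMM factors, of 8573 on day 16, 4297 on day 23 and 6184 on day 31. The members' median moved by more than the spread between libraries to 0.57 and 0.56 on day 31 (without day 23 library 1 or day 31 library 2), 0.96 and 1.06 on day 38 (library size alone, or without day 38 library 1) and 0.24 for day 45 against day 16 (without day 16 library 1). Asking also for an absolute log2 fold change of at least 1 left 16 members at day 23, 2 at day 31, 12 at day 45 against day 38 and 9 at day 45 against day 16. When each library was left out in turn, the counts ran from 21 to 25 at day 23, 6 to 17 at day 31, 25 to 27 at day 38, 17 to 25 at day 45 against day 38, 15 to 19 at day 45 against day 16 and 33 to 37 for any day. No member described in every library changed direction while it had a call. Over these members, fits that left out a library moved 66 of 1300 values across the threshold, 60 of them by losing a call. The libraries carry replicate numbers, but same-numbered libraries did not deviate together (correlations of deviations from the day means from -0.032 to 0.0199 over 10 pairs of days), so the numbers were not taken as pairs. With the replicate block, 26 members passed at day 23, 17 at day 31, 27 at day 38, 24 at day 45 against day 38 and 18 at day 45 against day 16. With 2 libraries a day, small shifts of low genes such as CA9, ANKRD37 and ADM may go undetected, and the smallest detectable shift was not measured. The pooled spread is estimated over all days. GC content and transcript length were not corrected for, and the medians of all genes lay near 0.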

Other observations

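Gene lists for the media and for growth were read beside the 38 genes, with the same edgeR test. Of all genes tested, 5.6% were higher and 5.33% lower on day 23, 1.58% and 0.666% on day 31, 8.8% and 6.23% on day 38, 4.85% and 6.35% on day 45, and 12.9% and 11.7% from day 16 to day 45. Of 9 glucocorticoid targets, 1 fell on day 23, 2 rose on day 31, 4 rose on day 38, and 1 rose and 1 fell on day 45. The day 23 fall was lost without any 1 of 5 libraries and the day 45 fall without any 1 of 3. The 2 that rose on day 31 became 1 without any 1 of the libraries of days 23 to 45. From day 16 to day 45, 6 rose and 2 fell, the 2 becoming 1 without day 16 library 1 or day 45 library 2. FKBP5, a chaperone partner of the steroid receptor, rose on day 38 (log2 fold change 2.02 ± 0.23, SE), as did SGK1, a kinase (1.15 ± 0.23). Of 8 cAMP targets tested, 2 rose and 4 fell on day 23, 1 rose on day 31, 3 rose and 1 fell on day 38, and 5 rose and 1 fell on day 45. The day 31 rise was lost without any 1 of 4 libraries. The nuclear receptors NR4A2 and NR4A3 fell on day 23 (-3.99 ± 0.42 and -2.94 ± 0.18) and rose on day 45 (2.95 ± 0.36 and 3.01 ± 0.18). PDE4B, a phosphodiesterase that breaks cAMP down, rose on day 23 (3.01 ± 0.33).

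Of 16 cell cycle genes, 5 fell on day 23, 1 rose on day 31, 1 rose and 3 fell on day 38, and 3 fell on day 45. The 5 became 2 without day 16 library 2 or either day 23 library, none of them keeping its call whichever library was left out, and the 3 became 1 without day 45 library 1. The rise on day 31 was lost without any 1 of 5 libraries. The replication helicase genes MCM5 and MCM2 fell on day 38 (-1.80 ± 0.35 and -1.74 ± 0.26), and the 1 that rose was TOP2A, a topoisomerase (0.62 ± 0.16), named after its values were seen, whose call was lost without day 31 library 2 (0.55, edgeR adjusted p = 0.113). The median of the 16 on day 38 was 0.22. From day 16 to day 45, 6 of the 16 fell and none rose.

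The summed level of the 5 epithelial markers, led by CDH1, stayed between 1510 and 2413 CPM in the 10 libraries. Goblet markers, led by MUC5B, summed to 1.27 to 6.05 CPM before day 38 and to at least 36.6 CPM in each later library. Airway basal markers, led by KRT5, summed to 1.99 to 51.4 CPM, endothelial markers, led by KDR, to 10.7 to 36.9 CPM, and neural markers, led by TUBB3, to 6.46 to 40.3 CPM. Pluripotency markers, led by DPPA4, went from 191 and 169 CPM on day 16 to 11.6 and 15.4 on day 45. Blood markers, led by CD68, summed to 2.66 to 37.9 CPM, with HBG1 at 0 in every library.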
